A study of Homo sapiens with 30 samples.

Results

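One day of Wnt3a was compared with no Wnt3a in RUES2 cells, an established line of human embryonic stem cells, by counting RNA per gene. The comparison holds 4 of the 30 samples of the series: the 2 libraries named WNT and the 2 named E7, out of 16 RNA libraries in 8 groups. They were chosen by their labels alone: collected at 24 h, not treated with the bromodomain inhibitor CPI-203, and without Activin A, which other groups received on the second day. WNT cultures received Wnt3a at 100 ng/mL for the day. E7 cultures received none. Both were kept in TeSR E7 medium with a ROCK inhibitor, a compound that helps dissociated stem cells survive, so every value is a difference on top of that medium. Both groups are the same line, and whether the replicates were separate cultures is not stated; the p-values therefore reflect library-to-library spread alone, which may be technical.

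Wnt3a is a secreted lipid-modified protein that binds Frizzled and LRP receptors at the cell surface. Binding stops the breakdown of beta-catenin, which enters the nucleus and joins DNA-binding TCF and LEF proteins at target genes. Several of the best known targets encode inhibitors of the same pathway, and in the early embryo the signal is known for starting the primitive streak and for patterning the posterior body.

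SP5 encodes a zinc finger transcription factor of the Sp family and is a known direct target of beta-catenin. It showed the largest log2 fold change among the genes called. Its promoter, from 250 bases before to 50 bases after the RefSeq start, is shown here because it held 3 copies of the core letters that TCF and LEF proteins bind. The letters searched were CTTTGAA and CTTTGAT on both strands. Capitals mark the matches, and those that read TTCAAAG lie on the other strand. Sequence and position are RefSeq's, on GRCh38.p14.
SP5, chr2:170715087-170715386, + strand: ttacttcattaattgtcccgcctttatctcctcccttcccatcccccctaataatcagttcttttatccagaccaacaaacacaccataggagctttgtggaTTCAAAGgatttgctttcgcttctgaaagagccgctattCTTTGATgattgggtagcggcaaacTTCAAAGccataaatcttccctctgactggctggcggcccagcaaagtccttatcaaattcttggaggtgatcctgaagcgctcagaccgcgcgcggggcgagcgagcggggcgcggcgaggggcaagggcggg
The first bases of the matches lay 148, 109 and 84 bases before the start site, and no match overlapped another.

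Such letters were not common among the called promoters. A window was in the table for 204 of the 259 genes called higher, and 8 of these (3.92%) held a match. Among genes called lower the share was 4 of 120 (3.33%), and over all tested genes 608 of 13696 (4.44%). The other 7 windows of genes called higher, picked after their values were seen, are shown to set their flanks beside those of SP5, with the match in capitals.
C4orf54, chr4:99658017-99658047, - strand: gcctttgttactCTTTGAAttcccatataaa
CDX2, chr13:27969535-27969565, - strand: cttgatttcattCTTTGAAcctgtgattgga
DACT1, chr14:58633835-58633865, + strand: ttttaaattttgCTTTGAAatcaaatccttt
HOXB1, chr17:48531213-48531243, - strand: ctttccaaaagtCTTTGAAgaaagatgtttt
HPAT5, chr6:167228056-167228086, + strand: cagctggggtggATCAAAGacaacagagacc
MYO3B, chr2:170178178-170178196, + strand: tacattctagtcATCAAAG
SP8, chr7:20786919-20786949, - strand: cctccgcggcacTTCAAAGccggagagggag
The windows of LEF1, RNF43, WNT5B, FST and EOMES held none of these letters. AXIN2, NKD1 and CDX1 had no entry.

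Read totals were 41579014 and 36268324 counts in WNT libraries and 40004203 and 42394430 counts in E7 libraries. Levels are given as CPM (each library's counts over its TMM-adjusted total, on a common scale), the first value being replicate 1 and the next replicate 2. Fold changes are log2 of WNT over E7 with their standard error (SE), from edgeR's quasi-likelihood test with the replicate number as a block. A gene was called at a Benjamini-Hochberg adjusted p under 0.05 over all 17793 genes tested. Markers of the labelled cell type were expressed in both groups: POU5F1, a core pluripotency factor, had 586 and 724 CPM with Wnt3a (WNT) and 484 and 636 CPM without (E7), and SOX2 had 315 and 389.7 CPM with Wnt3a (WNT) and 278 and 357 CPM without (E7). In bulk RNA, fewer cells of a type and less RNA per cell cannot be told apart, which holds for every value here. Markers of other cell types were summed over each list. Trophoblast and amnion markers summed to 34.5 and 37.2 CPM in WNT libraries and 34.6 and 37.9 CPM in E7 libraries, with TFAP2B and ITGB6 at 0 among 20. Fibroblast markers summed to 540.0 and 823 CPM in WNT libraries and 693 and 985 CPM in E7 libraries, with DCN and LUM at 0 among 13. Endothelial and blood markers summed to 70.8 and 78.2 CPM in WNT libraries and 75.9 and 77.0 CPM in E7 libraries, with none of 15 at 0. Endoderm markers summed to 90.8 and 129 CPM in WNT libraries and 158 and 179 CPM in E7 libraries, with none of 16 at 0. Among these lists only the endoderm sums did not overlap between groups. Without OTX2 and SHISA2 the direction was reversed. The other 14 endoderm members summed to 76.3 and 115 CPM in WNT libraries and 60.8 and 92.8 CPM in E7 libraries. These sums overlapped between groups, but each WNT library was above the E7 library of its own number. The lower endoderm sums thus rested on those 2 genes. Regional neural factors, summed over tested members, had 1043 and 1113 CPM in WNT libraries and 717 and 734 CPM in E7 libraries, without overlap. Neuronal and vesicle genes had 687 and 839 CPM in WNT libraries and 642 and 758 CPM in E7 libraries, with overlap. The part of these markers in the results was not tested.

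With spread estimated over all 15 fitted libraries, a small set of genes passed, more of them up than down. The largest changes were increases in genes with few or no counts in E7. Of the 17793 genes tested, 259 (1.46%) were called higher and 155 (0.871%) lower, together 414 (2.33%). The median log2 fold change was 1.32 among genes called higher and -1.06 among genes called lower, against 0.01 over all tested genes. A log2 change above 2 was found for 75 genes called higher, and one below -2 for 21 called lower. Each of the 414 moved the same way in both replicate pairs, which follows largely from calling them on these same libraries. The libraries of the groups did not overlap for 249 genes called higher and 145 called lower, while over all tested genes WNT lay wholly above E7 for 14.3% and wholly below for 13.3%. Genes called higher summed to a mean of 23131 CPM in WNT libraries and 11330.1 CPM in E7 libraries, and genes called lower to 7446 CPM in WNT libraries and 12549 CPM in E7 libraries. By kind of gene, 244 called higher and 153 called lower were protein-coding, and 15 higher and 2 lower were long noncoding RNAs. The replicate term and the libraries set how many genes passed: 76 were called without the block, and 138 without WNT replicate 1, 107 without WNT replicate 2, 146 without E7 replicate 1 and 129 without E7 replicate 2. Of the 414, 82 were called in all 4 of those fits without one library, 71 higher and 11 lower, and 211 in none of the 4. Spread taken from fewer groups gave larger sets, split almost evenly. WNT and E7 alone put 1201 up and 1176 down, and the 24 h libraries 827 and 755. DESeq2's Wald test put 385 up and 365 down, while the fit without the block put 65 up and 11 down. Both the size of the set and the excess of increases thus depended on the fit.

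**Figure D1:**
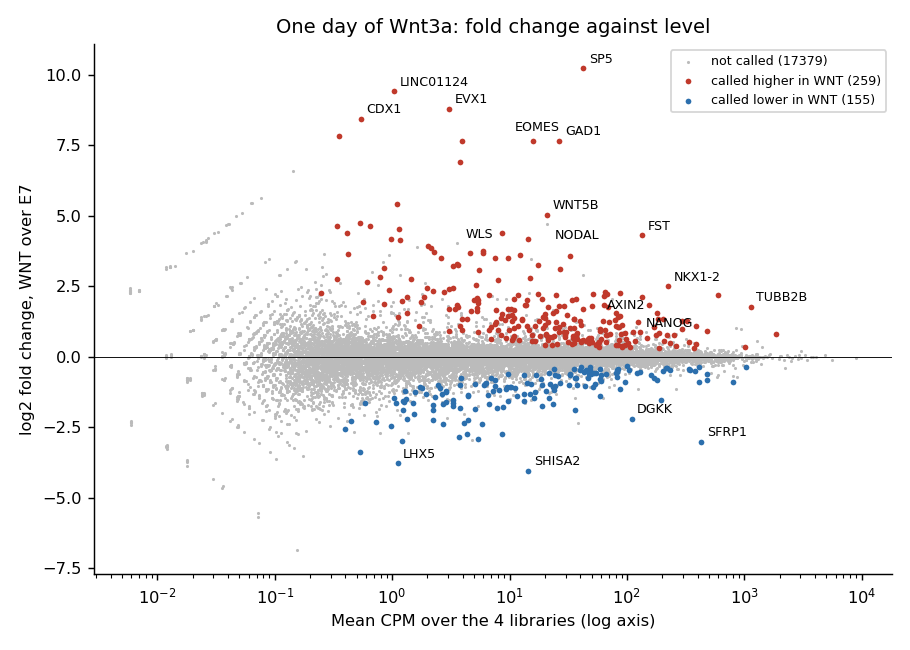
Mean CPM over the 4 libraries (log axis) against log2 fold change of WNT over E7, one point per tested gene. Red points are the 259 genes called higher in WNT, blue points the 155 called lower and grey points the genes not called, among them NODAL at 4.70; SP5 stands highest at 10.23, and SHISA2 is the lowest blue point at -4.03.

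Some genes for Wnt proteins and their release were called higher, most were not called. Of 21 genes of ligands and secretion, 16 were tested, 5 (31.2%) were called higher and none lower, against 1.46% higher over all tested genes. The median log2 fold change of those tested was 0.01. WNT5B, a ligand best known for signalling without beta-catenin, had 45.3 and 36.4 CPM in WNT libraries, against 1.22 and 1.27 CPM in E7 libraries (log2 fold change 5.03 ± 0.50 SE, adjusted p = 0.000468). WLS, the membrane carrier that takes Wnt proteins to the cell surface, had 16.3 and 16.6 CPM in WNT libraries, against 0.716 and 0.839 CPM in E7 libraries (log2 fold change 4.40 ± 0.31 SE, adjusted p = 3.9e-05). Both were high in each WNT library, with no overlap between groups. The 3 other ligands called had few counts in E7 and could hardly have been called lower. Counts of WNT3A, the gene of the ligand supplied, were 62 and 105 in WNT libraries against 4 and 6 in E7 libraries (log2 fold change 4.13 ± 0.54 SE, adjusted p = 0.00272). WNT8A, a ligand of the early mesoderm in vertebrate embryos, had 90 and 82 counts in WNT libraries against 6 and 2 in E7 libraries (log2 fold change 4.51 ± 0.96 SE, adjusted p = 0.0355). For WNT10B, counts were 56 and 85 in WNT libraries against 6 and 2 in E7 libraries (log2 fold change 4.18 ± 0.82 SE, adjusted p = 0.0239). All 3 had more counts in each WNT library than in any E7 library, and the 11 other tested members, WNT5A among them at 7.38 and 8.43 CPM with Wnt3a (WNT) and 8.71 and 8.32 CPM without (E7), were not called. WNT5B and WLS kept their calls without any one library. The highest adjusted p of WNT3A was 0.0541 without E7 replicate 2, of WNT8A 0.255 without E7 replicate 2 and of WNT10B 0.279 without E7 replicate 2, and without the block WNT8A and WNT10B had 0.123 and 0.191.

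Among receptor genes FZD10 and PTK7 were called. Of 24 genes of receptors and R-spondins, all tested, 2 (8.33%) were called higher and none lower, with a median log2 fold change of 0.03. Over all tested genes 1.46% were called higher. FZD10, a Frizzled receptor, had 2.02 and 0.703 CPM in WNT libraries, against 0.43 and 0.288 CPM in E7 libraries (log2 fold change 1.87 ± 0.34 SE, adjusted p = 0.0157), and the level in WNT replicate 1 was well above that in WNT replicate 2. PTK7, a receptor-like protein of planar cell polarity, had 242 and 297 CPM in WNT libraries, against 184 and 199.7 CPM in E7 libraries (log2 fold change 0.49 ± 0.11 SE, adjusted p = 0.0421). Adjusted p reached 0.242 without WNT replicate 1 for FZD10 and 0.421 without WNT replicate 2 for PTK7, and without the block the values were 0.447 and 0.576. CTNNB1, which encodes beta-catenin itself, had 552 and 641 CPM with Wnt3a (WNT) and 553 and 616 CPM without (E7) (log2 fold change 0.03 ± 0.07 SE, adjusted p = 0.96).

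Nuclear factors of the pathway were called in both directions. All 22 genes of TCF, LEF, Sp factors and beta-catenin partners were tested, with a median of 0.15. Of these, 5 (22.7%) were called higher and 2 (9.09%) lower, against 1.46% and 0.871% over all tested genes. SP5 had 78.5 and 91.2 CPM in WNT libraries, against 0.0716 and 0.0719 CPM in E7 libraries (log2 fold change 10.23 ± 0.54 SE, adjusted p = 1.21e-05). Its counts were 3341 and 3246 in WNT libraries against 3 and 3 in E7 libraries, a ratio of 1174 with a 95% counting interval of 539 to 3202. SP8, its relative, had 33.4 and 30.2 CPM in WNT libraries, against 3.01 and 3.6 CPM in E7 libraries (log2 fold change 3.25 ± 0.22 SE, adjusted p = 3.9e-05). Both Sp genes were high in each WNT library and low in each E7 library. LEF1, through which beta-catenin reaches DNA, had 21.5 and 14.2 CPM in WNT libraries, against 2.29 and 0.911 CPM in E7 libraries (log2 fold change 3.51 ± 0.38 SE, adjusted p = 0.000799). TCF7, another such partner, had 37.5 and 43.8 CPM in WNT libraries, against 11.7 and 11.4 CPM in E7 libraries (log2 fold change 1.80 ± 0.21 SE, adjusted p = 0.00113). LEF1 overlaps LEF1-AS1, TCF7 overlaps VDAC1 and SP5 overlaps ERICH2-DT in RefSeq, and reads of overlapping genes cannot be told apart, as strand was not stated. The Groucho corepressors, which bind TCF proteins, went different ways. TLE3 had 115 and 122 CPM in WNT libraries, against 78 and 76.1 CPM in E7 libraries (log2 fold change 0.62 ± 0.12 SE, adjusted p = 0.0194). TLE2 had 3.5 and 6.3 CPM in WNT libraries, against 11.6 and 17.1 CPM in E7 libraries (log2 fold change -1.58 ± 0.25 SE, adjusted p = 0.00757), and TLE5, a short member of the family, had 79 and 129.9 CPM in WNT libraries, against 114 and 193 CPM in E7 libraries (log2 fold change -0.55 ± 0.11 SE, adjusted p = 0.0239). TLE5 overlapped between groups, with WNT replicate 2 above E7 replicate 1. SP5, SP8, LEF1 and TCF7 kept their calls without any one library and without the block, while TLE2 reached 0.12 without WNT replicate 1, TLE3 0.226 without WNT replicate 2 and TLE5 0.215 without WNT replicate 1.

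Inhibitors of the pathway were called in both directions. Of 29 feedback genes and extracellular antagonists, 26 were tested, with a median of 0.02. Among those 26, 6 (23.1%) were called higher and 2 (7.69%) lower, against 1.46% and 0.871% over all tested genes. AXIN2, a scaffold of the complex that breaks down beta-catenin, had 109 and 117 CPM in WNT libraries, against 51.1 and 57.8 CPM in E7 libraries (log2 fold change 1.05 ± 0.19 SE, adjusted p = 0.0157). NKD1, which binds Dishevelled, had 32.9 and 27.9 CPM in WNT libraries, against 7.88 and 6.9 CPM in E7 libraries (log2 fold change 2.04 ± 0.14 SE, adjusted p = 3.9e-05). RNF43, a ubiquitin ligase that removes Frizzled from the surface, had 10.1 and 6.97 CPM in WNT libraries, against 2.03 and 2.01 CPM in E7 libraries (log2 fold change 2.09 ± 0.29 SE, adjusted p = 0.00325). All 3 were above both E7 libraries in both WNT libraries, and AXIN2 was well expressed in E7 too. APCDD1, a membrane inhibitor of Wnt, had 21.1 and 24.4 CPM in WNT libraries, against 2.22 and 1.7 CPM in E7 libraries (log2 fold change 3.59 ± 0.35 SE, adjusted p = 0.000398). DACT1, another Dishevelled-binding protein, had 49.2 and 47.2 CPM in WNT libraries, against 4.77 and 6.38 CPM in E7 libraries (log2 fold change 3.10 ± 0.63 SE, adjusted p = 0.0286). TRABD2A, a membrane protease that inactivates Wnt proteins, had 23.3 and 22.3 CPM in WNT libraries, against 14.1 and 13.5 CPM in E7 libraries (log2 fold change 0.73 ± 0.15 SE, adjusted p = 0.0353). The 2 members that fell were SFRP1 and SHISA2. SFRP1, a secreted Frizzled-related protein that binds Wnt, had 115 and 76.8 CPM in WNT libraries, against 794 and 738 CPM in E7 libraries (log2 fold change -3.01 ± 0.35 SE, adjusted p = 0.00109). SHISA2, of a family whose frog founder holds Wnt and FGF receptors inside the cell, had 2.16 and 1.15 CPM in WNT libraries, against 31.2 and 23.5 CPM in E7 libraries (log2 fold change -4.03 ± 0.55 SE, adjusted p = 0.00325). SFRP2, a close relative of SFRP1, was not called, with 678 and 781 CPM with Wnt3a (WNT) and 689 and 778 CPM without (E7) (log2 fold change -0.01 ± 0.11 SE, adjusted p = 0.991). NKD1, APCDD1 and SFRP1 kept their calls without any one library. AXIN2 lost its call in all 4 of those fits, with adjusted p up to 0.219 without WNT replicate 2, and had 0.123 without the block; DACT1 reached 0.258 without E7 replicate 1, TRABD2A 0.257 without WNT replicate 2, RNF43 0.0583 without E7 replicate 2 and SHISA2 0.0689 without WNT replicate 2.

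**Figure D2:**
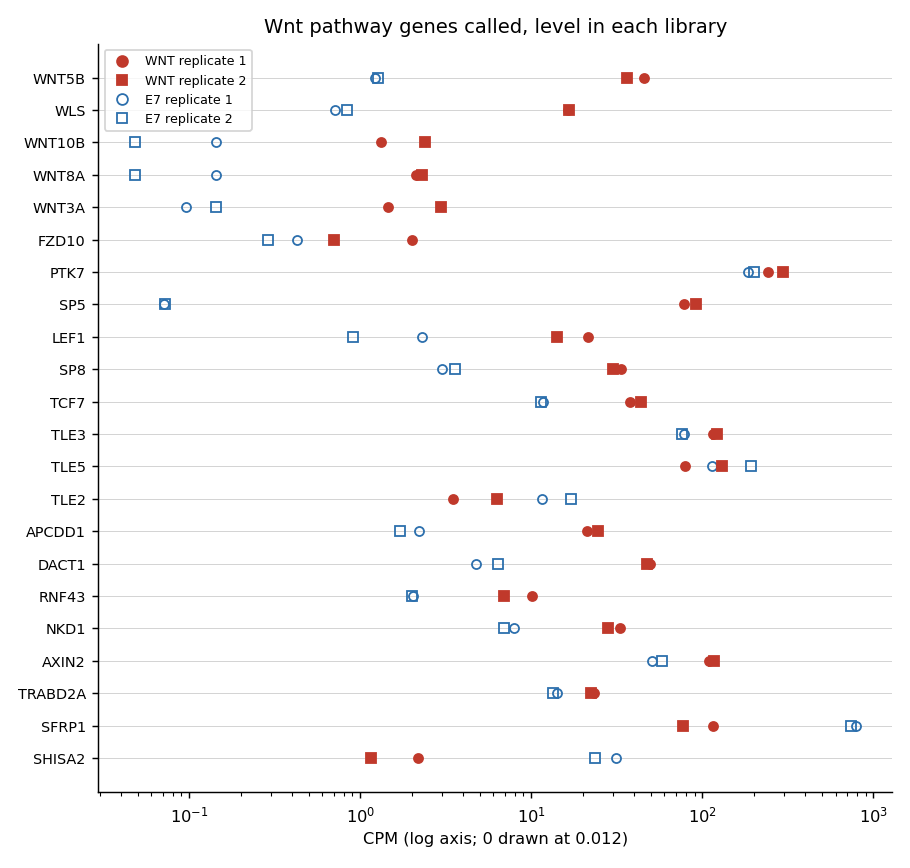
CPM (log axis) in each library of the 22 Wnt pathway genes called, from ligands at the top to antagonists at the bottom; filled red marks are WNT, open blue marks E7, circles replicate 1 and squares replicate 2. SP5 stands at 78.5 and 91.2 CPM in WNT against 0.0716 and 0.0719 CPM in E7, while SFRP1 and SHISA2 lie to the left in WNT.

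Of 1178 tested genes with under 10 counts in each E7 library, 20 were called higher. This share is close to the 1.46% called higher over all tested genes. The 20 comprised 15 protein-coding genes and 5 long noncoding RNAs. LINC01124, CDX1 and EVX1-AS had no count in either E7 library. EVX1-AS overlaps EVX1 in RefSeq, so its reads are uncertain. LINC01124 had 87 and 76 counts in WNT libraries, at least 29.1-fold higher than a floor of 3 counts in each E7 library (log2 fold change 9.41 ± 0.64 SE, adjusted p = 0.000135). CDX1, a caudal homeobox factor, had 51 and 34 counts in WNT libraries, at least 15-fold higher than that floor (log2 fold change 8.44 ± 1.13 SE, adjusted p = 0.004). The fitted changes of both depend on how zeros are treated and are no bound. HOTAIRM1, a noncoding RNA of the HOXA cluster, had 330 and 259 counts in WNT libraries against 2 and 3 in E7 libraries (log2 fold change 6.90 ± 1.10 SE, adjusted p = 0.00788). TTC29, a protein of the axoneme of cilia and flagella, had 41 and 54 counts in WNT libraries against 1 and 3 in E7 libraries (log2 fold change 4.63 ± 0.51 SE, adjusted p = 0.000866). The noncoding LINC02714 had 48 and 69 counts in WNT libraries against 6 and 8 in E7 libraries (log2 fold change 3.15 ± 0.43 SE, adjusted p = 0.00324). All 20 were above both E7 libraries in both WNT libraries, which follows largely from how they were picked. Genes so low in E7 could hardly be called lower. The margin in counts was narrow for TSHZ1, with 18 and 14 in WNT libraries against 3 and 4 in E7 libraries. LINC01124, CDX1 and TTC29 kept their calls without any one library, HOTAIRM1 reached 0.118 without E7 replicate 1 and LINC02714 0.0502 without E7 replicate 2.

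**Figure D3:**
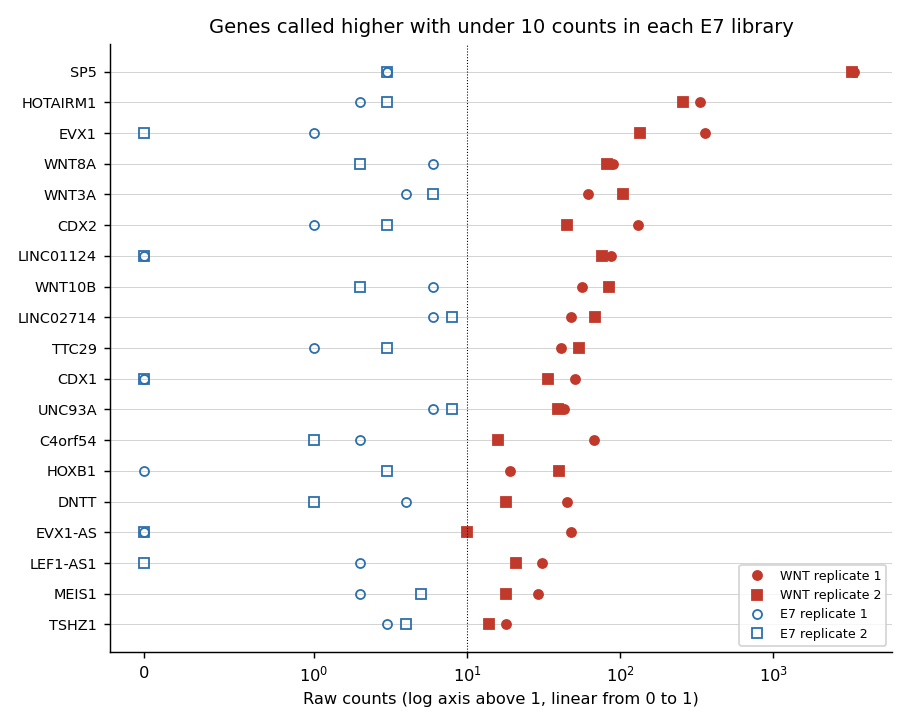
Raw counts in each library of 19 of the 20 genes called higher with under 10 counts in each E7 library, ordered by mean WNT CPM; filled red marks are WNT, open blue marks E7, and the dotted line marks 10 counts. SP5 has over 3000 counts in each WNT library, and TSHZ1, at the foot, has 18 and 14.

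Homeobox genes of the posterior body were among these. In the list of HOX, CDX and cofactor genes, 22 of 50 were tested and 28 had too few counts in every group, so the tested ones are not the whole family. Of the 22, 7 (31.8%, against 1.46% over all tested genes) were called higher and none lower, with a median of 1.47. CDX1, CDX2, EVX1 and HOXB1 had at most 3 counts in each E7 library. They passed the count filter only through groups where they are higher, and could hardly have been called lower. The share called and the median thus follow in part from the filter. HOXB1, at the front end of the HOXB cluster, had 19 and 40 counts in WNT libraries against 0 and 3 in E7 libraries (log2 fold change 4.39 ± 0.67 SE, adjusted p = 0.00838). CDX2, a caudal factor also active in trophoblast, had 131 and 45 counts in WNT libraries against 1 and 3 in E7 libraries (log2 fold change 5.42 ± 0.63 SE, adjusted p = 0.00114). Both were at or near 0 in E7. HOXA2 and HOXB2 were not called: HOXA2 had 0.164 and 0.141 CPM with Wnt3a (WNT) and 0 and 0.024 CPM without (E7) (log2 fold change 3.37 ± 1.22 SE, adjusted p = 0.268), and HOXB2 had no count in 3 of the 4 libraries. EVX1, a homeobox factor of the posterior streak, had 358 and 135 counts in WNT libraries against 1 and 0 in E7 libraries, a ratio of 527 with a 95% counting interval of 94.2 to 20874 (log2 fold change 8.79 ± 1.42 SE, adjusted p = 0.0112). MEIS3, a HOX cofactor, had 22.6 and 27.5 CPM in WNT libraries, against 10.4 and 10.4 CPM in E7 libraries (log2 fold change 1.26 ± 0.22 SE, adjusted p = 0.0142), and MEIS1 had 0.681 and 0.506 CPM in WNT libraries, against 0.0477 and 0.12 CPM in E7 libraries (log2 fold change 2.77 ± 0.55 SE, adjusted p = 0.0266). CDX2 kept its call without any one library, with 0.131 without the block. EVX1 lost its call in 3 of those 4 fits, up to 0.201 without E7 replicate 1; HOXB1 reached 0.081 without E7 replicate 2, MEIS3 0.18 without WNT replicate 2 and MEIS1 0.275 without E7 replicate 1.

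Primitive streak genes were called in part. Of 24, 22 were tested, with a median of 0.95. The 4 called higher (18.2%, against 1.46% over all tested genes) were EOMES, EVX1, CDX1 and CDX2, and none was called lower. EVX1, CDX1 and CDX2, near 0 in E7, could hardly have been called lower. EOMES, a T-box factor needed for mesoderm and endoderm, had 38.8 and 24.1 CPM in WNT libraries, against 0.263 and 0.0959 CPM in E7 libraries (log2 fold change 7.63 ± 0.77 SE, adjusted p = 0.000481). NODAL, the ligand that patterns the streak, had 31.5 and 49.5 CPM in WNT libraries, against 1.53 and 1.63 CPM in E7 libraries, without overlap, and did not pass (log2 fold change 4.70 ± 1.09 SE, adjusted p = 0.0533). TBXT, the Brachyury T-box factor, had 3.34 and 2.73 CPM in WNT libraries, against 0.263 and 0.168 CPM in E7 libraries and did not pass either (log2 fold change 3.91 ± 1.13 SE, adjusted p = 0.133). MIXL1, a homeobox factor of the streak, had 1.34 and 1.71 CPM in WNT libraries, against 0.477 and 0.575 CPM in E7 libraries (log2 fold change 1.56 ± 1.81 SE, adjusted p = 0.87). The estimate of spread came from all 15 fitted libraries: with the 24 h libraries alone all 3 passed, with adjusted p of 1.83e-06 for NODAL, 7.38e-05 for TBXT and 0.0117 for MIXL1. With WNT and E7 alone the values were 4.23e-08 for NODAL, 1.43e-05 for TBXT and 0.00415 for MIXL1, and DESeq2's Wald test gave 0.00142, 0.0186 and 0.882 in that order. NODAL also passed with no filter on low counts (0.0253) and with E7_CPI replicate 1 added (0.0495). EOMES kept its call without any one library and had 0.0684 without the block. Among 16 endoderm and anterior streak genes, all tested, none was called higher, and the 1 called lower was SHISA2. GSC, an anterior streak factor, had 0.094 and 0.0562 CPM with Wnt3a (WNT) and 0.0239 and 0 CPM without (E7).

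Some genes of other signalling pathways were called. Over all tested genes 1.46% were called higher and 0.871% lower. In the Activin and Nodal pathway 28 of 29 genes were tested, with 1 called higher and 1 lower (3.57% each) and a median of 0.18. FST encodes follistatin, which binds and blocks Activin, and had 267 and 248 CPM in WNT libraries, against 12.6 and 13.2 CPM in E7 libraries (log2 fold change 4.32 ± 0.34 SE, adjusted p = 6.9e-05). INHBA, a subunit of Activin A, had 1.46 and 1.74 CPM in WNT libraries, against 5.66 and 4.41 CPM in E7 libraries (log2 fold change -1.65 ± 0.35 SE, adjusted p = 0.0371). Every WNT library thus had more FST and less INHBA than every E7 library. CRIPTO, a Nodal co-receptor, had 434 and 734 CPM with Wnt3a (WNT) and 537 and 901 CPM without (E7) (log2 fold change -0.30 ± 0.20 SE, adjusted p = 0.672). In the BMP pathway 3 of 26 genes (11.5%), all tested, were called higher and none lower, with a median of 0.23. BMP4, a ligand of mesoderm and amnion, had 7.26 and 8.85 CPM in WNT libraries, against 2.08 and 2.88 CPM in E7 libraries (log2 fold change 1.71 ± 0.19 SE, adjusted p = 0.000881). ID2, a target of BMP signalling that blocks basic helix-loop-helix factors, had 37.6 and 32.1 CPM in WNT libraries, against 16 and 13.8 CPM in E7 libraries (log2 fold change 1.22 ± 0.11 SE, adjusted p = 0.000164). ID1, of the same family, had 13.3 and 31.4 CPM in WNT libraries, against 6.3 and 14.8 CPM in E7 libraries (log2 fold change 1.08 ± 0.24 SE, adjusted p = 0.0472). For ID1 the groups overlapped, as replicate 2 was higher than replicate 1 in each, and ID3 was not called at 178 and 256 CPM with Wnt3a (WNT) and 115 and 161 CPM without (E7) (log2 fold change 0.64 ± 0.32 SE, adjusted p = 0.478). FST, BMP4 and ID2 kept their calls without any one library, BMP4 having 0.0638 without the block, while INHBA reached 0.407 without WNT replicate 1 and ID1 0.435 without WNT replicate 2.

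Some FGF and retinoid genes were called, and no Notch gene was. Over all tested genes 1.46% were called higher and 0.871% lower, together 2.33%. With 21 Notch genes tested, none called is near that share. In the FGF and MAPK feedback list, 3 of 31 tested genes (9.68%) were called higher and none lower, with 2 more not tested and a median of 0.07. FGF19, a secreted FGF, had 30.4 and 41 CPM in WNT libraries, against 14.4 and 19.8 CPM in E7 libraries (log2 fold change 1.06 ± 0.20 SE, adjusted p = 0.0213). SPRED2, an inhibitor of the pathway, had 58.5 and 55.9 CPM in WNT libraries, against 36.3 and 37.4 CPM in E7 libraries (log2 fold change 0.64 ± 0.14 SE, adjusted p = 0.0396), and DUSP5, a phosphatase of ERK, had 50.7 and 65.9 CPM in WNT libraries, against 32.3 and 41.8 CPM in E7 libraries (log2 fold change 0.65 ± 0.12 SE, adjusted p = 0.0149). Retinoid genes had 2 of 18 (11.1%) called higher, none lower and a median of 0.18. CRABP2, which carries retinoic acid to the nucleus, had 205 and 271 CPM in WNT libraries, against 50.2 and 88.2 CPM in E7 libraries (log2 fold change 1.83 ± 0.35 SE, adjusted p = 0.0213). CRABP2 was above all E7 values in each WNT library. None of 21 tested Notch genes was called in either direction, NOTCH2 having 169.7 and 182 CPM with Wnt3a (WNT) and 163 and 148 CPM without (E7) and NOTCH3 171 and 231 CPM with Wnt3a (WNT) and 145 and 169 CPM without (E7). CRABP2, FGF19, SPRED2 and DUSP5 lost their calls in all 4 fits without one library, with adjusted p up to 0.194, 0.224, 0.391 and 0.158 in that order.

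Regional factors of the nervous system were called in both directions. Of 46, 37 were tested, with a median of -0.27. Of those 37, 3 (8.11%) were called higher and 6 (16.2%) lower, against 1.46% and 0.871% over all tested genes. NKX1-2, a homeobox factor of the caudal epiblast in mouse, had 353 and 411 CPM in WNT libraries, against 55.5 and 82 CPM in E7 libraries (log2 fold change 2.50 ± 0.27 SE, adjusted p = 0.000733). GBX2, a homeobox factor of the anterior hindbrain, had 63.9 and 56.7 CPM in WNT libraries, against 5.18 and 4.84 CPM in E7 libraries (log2 fold change 3.59 ± 0.57 SE, adjusted p = 0.00821). FOXB1, a forkhead factor of the brain and caudal neural plate in mouse, had 32 and 22.1 CPM in WNT libraries, against 2.29 and 0.839 CPM in E7 libraries (log2 fold change 4.16 ± 0.32 SE, adjusted p = 6.28e-05). The members that fell include factors known from the forebrain. LHX5, a LIM homeobox factor, had 0.0705 and 0.225 CPM in WNT libraries, against 2.75 and 1.41 CPM in E7 libraries (log2 fold change -3.78 ± 0.80 SE, adjusted p = 0.0355). HESX1, a homeobox repressor of the anterior forebrain, had 0.987 and 1.26 CPM in WNT libraries, against 7.47 and 7.53 CPM in E7 libraries (log2 fold change -2.74 ± 0.42 SE, adjusted p = 0.00631). EMX1, a factor of the cerebral cortex, had 1.39 and 1.21 CPM in WNT libraries, against 4.94 and 3.28 CPM in E7 libraries (log2 fold change -1.66 ± 0.36 SE, adjusted p = 0.0371). None of these overlapped between groups. POU3F1, a POU factor of early neural fate in mouse, had 9.47 and 13.4 CPM in WNT libraries, against 34.7 and 37.2 CPM in E7 libraries (log2 fold change -1.69 ± 0.33 SE, adjusted p = 0.0236). The zinc finger genes ZIC2 and ZIC5, which lie side by side, were also called lower, ZIC2 with 113 and 84.1 CPM in WNT libraries, against 160.3 and 129.9 CPM in E7 libraries (log2 fold change -0.56 ± 0.12 SE, adjusted p = 0.037) and ZIC5 with 70.5 and 54.6 CPM in WNT libraries, against 116 and 88.4 CPM in E7 libraries (log2 fold change -0.70 ± 0.15 SE, adjusted p = 0.0344). OTX2, an anterior factor named after its values were seen, had 12.4 and 12.5 CPM in WNT libraries, against 65.8 and 62.4 CPM in E7 libraries and did not pass (log2 fold change -2.36 ± 0.90 SE, adjusted p = 0.293). NKX1-2 and FOXB1 kept their calls without any one library. GBX2, LHX5, EMX1, POU3F1, ZIC2 and ZIC5 lost theirs in all 4 of those fits, with up to 0.114 without E7 replicate 1 for GBX2, 0.449 without WNT replicate 1 for LHX5, 0.326 without E7 replicate 1 for EMX1, 0.236 without WNT replicate 2 for POU3F1, 0.387 without WNT replicate 2 for ZIC2 and 0.296 without WNT replicate 2 for ZIC5, and HESX1 reached 0.124 without WNT replicate 1.

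Of the neuronal and vesicle genes called, all but 1 were lower. Of 31 tested, 1 of 32 having too few counts, 5 (16.1%) were called lower and 1 (3.23%) higher, with a median of -0.56. The shares over all tested genes were 0.871% and 1.46%. SYP, a protein of synaptic vesicles, had 3.55 and 3.29 CPM in WNT libraries, against 11.1 and 13.3 CPM in E7 libraries (log2 fold change -1.82 ± 0.22 SE, adjusted p = 0.00157). CHGA, a protein of secretory granules, had 23.7 and 40.9 CPM in WNT libraries, against 65.6 and 105 CPM in E7 libraries (log2 fold change -1.41 ± 0.14 SE, adjusted p = 0.000543). SEZ6, a neuronal membrane protein, had 1.86 and 2.67 CPM in WNT libraries, against 12.6 and 17.2 CPM in E7 libraries (log2 fold change -2.72 ± 0.30 SE, adjusted p = 0.00079). These 3 were low in both WNT libraries and called in each fit without one library, and SYP and SEZ6 also without the block, where CHGA had 0.199. CPLX2, which regulates vesicle fusion, had 0.54 and 0.675 CPM in WNT libraries, against 2.53 and 2.45 CPM in E7 libraries (log2 fold change -2.04 ± 0.28 SE, adjusted p = 0.00342), and NRXN2, a synaptic adhesion protein, had 3.62 and 4.33 CPM in WNT libraries, against 13.1 and 14.1 CPM in E7 libraries (log2 fold change -1.79 ± 0.34 SE, adjusted p = 0.0219). The member called higher was the tubulin TUBB3, with 305 and 479 CPM in WNT libraries, against 151 and 251 CPM in E7 libraries (log2 fold change 0.97 ± 0.11 SE, adjusted p = 0.000879). Other beta-tubulin genes were called higher too. TUBB2B had 1261 and 2263 CPM in WNT libraries, against 377 and 654 CPM in E7 libraries (log2 fold change 1.77 ± 0.10 SE, adjusted p = 1.71e-05), and TUBB2A had 684 and 1280.3 CPM in WNT libraries, against 136 and 311 CPM in E7 libraries (log2 fold change 2.17 ± 0.14 SE, adjusted p = 3.64e-05). TUBB2A and TUBB2B are near-identical copies, so the split of reads between them is uncertain. In each tubulin replicate 2 was the higher one in both groups, and none kept its call without the block, where adjusted p was 0.188 for TUBB2B, 0.232 for TUBB2A and 0.584 for TUBB3. NRXN2 reached 0.257 without WNT replicate 2 and CPLX2 0.0847 without WNT replicate 1.

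Guidance molecules were called in both directions. All 51 genes of axon guidance and ephrin signalling were tested, with 4 (7.84%) called higher, 3 (5.88%) lower and a median of -0.11. Shares over all tested genes were 1.46% and 0.871%. EFNB2, a membrane ligand of Eph receptors, had 82.4 and 75.6 CPM in WNT libraries, against 24.3 and 21.1 CPM in E7 libraries (log2 fold change 1.80 ± 0.17 SE, adjusted p = 0.000337). SLIT2, the secreted ligand of ROBO receptors, had 134 and 87.7 CPM in WNT libraries, against 32.8 and 16.1 CPM in E7 libraries (log2 fold change 2.21 ± 0.18 SE, adjusted p = 0.000118). SEMA3C, a secreted semaphorin, had 3.9 and 3.74 CPM in WNT libraries, against 0.31 and 0.192 CPM in E7 libraries (log2 fold change 3.93 ± 0.40 SE, adjusted p = 0.000499), and SEMA3E had 39.1 and 39.7 CPM in WNT libraries, against 16.1 and 19.2 CPM in E7 libraries (log2 fold change 1.17 ± 0.15 SE, adjusted p = 0.00184). These ligands were high in both WNT libraries. SEMA6D, a semaphorin held in the membrane, had 1.25 and 0.506 CPM in WNT libraries, against 9.55 and 3.5 CPM in E7 libraries (log2 fold change -2.85 ± 0.30 SE, adjusted p = 0.000592). UNC5B, a receptor of netrins, had 48 and 61.1 CPM in WNT libraries, against 108 and 133 CPM in E7 libraries (log2 fold change -1.15 ± 0.16 SE, adjusted p = 0.00378), and EPHB6, an Eph receptor without kinase activity, had 14.3 and 15.5 CPM in WNT libraries, against 28.9 and 29.8 CPM in E7 libraries (log2 fold change -0.98 ± 0.15 SE, adjusted p = 0.00703). UNC5B reached 0.0595 without WNT replicate 2 and EPHB6 0.114 without WNT replicate 2, and the others kept their calls without any one library, SEMA3E and SEMA6D having 0.176 and 0.264 without the block.

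NANOG was the gene called among pluripotency genes. Of 25 genes, all tested, 1 (4%, beside 1.46% over all tested genes) was called higher and none lower, with a median of -0.06. NANOG, a core pluripotency factor, had 138 and 197 CPM in WNT libraries, against 71.7 and 113 CPM in E7 libraries (log2 fold change 0.87 ± 0.16 SE, adjusted p = 0.0194). Its groups did not overlap, but the call was lost in all 4 fits without one library, up to 0.212 without WNT replicate 2, and without the block (0.737); reads shared with its processed pseudogenes are uncertain. LIN28A, DNMT3B, SALL4 and DPPA4, used with POU5F1 and SOX2 as markers of the stem cell, were not called. Of 18 genes of the naive state and germ line, 5 had too few counts, and the 13 tested had a median of 0.63. Among those tested, 3 (23.1%) were called higher and 1 (7.69%) lower, against 1.46% and 0.871% over all tested genes. KLF5, a Krüppel-like factor, had 11.3 and 10.5 CPM in WNT libraries, against 2.67 and 2.13 CPM in E7 libraries (log2 fold change 2.18 ± 0.29 SE, adjusted p = 0.00272). NR5A2, a nuclear receptor, had 56.7 and 54.9 CPM in WNT libraries, against 19.4 and 27.1 CPM in E7 libraries (log2 fold change 1.27 ± 0.20 SE, adjusted p = 0.00788). TFAP2C, an AP-2 factor shared by germ cells and trophoblast, had 15.6 and 14.1 CPM in WNT libraries, against 7.19 and 5.03 CPM in E7 libraries (log2 fold change 1.27 ± 0.27 SE, adjusted p = 0.0344). DPPA3, an oocyte and germ cell protein, had 0.235 and 0.253 CPM in WNT libraries, against 1.34 and 1.08 CPM in E7 libraries (log2 fold change -2.30 ± 0.47 SE, adjusted p = 0.0355), lower in each WNT library. Adjusted p reached 0.0547 without E7 replicate 2 for KLF5, 0.114 without E7 replicate 1 for NR5A2, 0.325 without WNT replicate 1 for TFAP2C and 0.308 without WNT replicate 1 for DPPA3. In the trophoblast and amnion list 2 of 11 tested genes (18.2%) were called higher, CDX2 and TFAP2C, and none lower, with a median of -0.28. In the fibroblast list THY1 was called lower among 10 tested, with 259 and 362 CPM in WNT libraries, against 354 and 538 CPM in E7 libraries (log2 fold change -0.51 ± 0.10 SE, adjusted p = 0.0224), and in the endothelial and blood list ERG was called lower among 12, with 3.45 and 2.87 CPM in WNT libraries, against 10 and 10.2 CPM in E7 libraries (log2 fold change -1.68 ± 0.34 SE, adjusted p = 0.0272). THY1 overlapped between groups, and it and ERG were called in none of the 4 fits without one library, with up to 0.262 without WNT replicate 2 and 0.257 without WNT replicate 2.

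Cell surface and matrix genes were called singly. Of 20 tested mesenchymal and cadherin switch genes 2 (10%, against 1.46% over all tested genes) were called higher and none lower, with a median of 0.24. MMP2, a matrix protease, had 76.2 and 78.3 CPM in WNT libraries, against 40.2 and 42.4 CPM in E7 libraries (log2 fold change 0.90 ± 0.10 SE, adjusted p = 0.000733). FN1, which encodes fibronectin, had 185 and 276 CPM in WNT libraries, against 86.6 and 134 CPM in E7 libraries (log2 fold change 1.07 ± 0.22 SE, adjusted p = 0.0347). CDH2, which encodes N-cadherin, had 83.4 and 65.5 CPM with Wnt3a (WNT) and 37.7 and 35 CPM without (E7) and was not called (log2 fold change 1.02 ± 0.29 SE, adjusted p = 0.124). CDH1, which encodes E-cadherin, had 479 and 489 CPM with Wnt3a (WNT) and 464 and 428 CPM without (E7) (log2 fold change 0.11 ± 0.13 SE, adjusted p = 0.863). None of 29 epithelial genes was called in either direction, which is near the 2.33% called over all tested genes. DSP, the desmosome protein desmoplakin, was not on that list and was called higher. It had 515 and 409.8 CPM in WNT libraries, against 207 and 172 CPM in E7 libraries (log2 fold change 1.28 ± 0.09 SE, adjusted p = 3.9e-05). LAMB1, a laminin chain, was the 1 called higher among 34 matrix and integrin genes (2.94%, beside 1.46% over all tested genes). It had 269 and 209.6 CPM in WNT libraries, against 182 and 95.4 CPM in E7 libraries (log2 fold change 0.83 ± 0.18 SE, adjusted p = 0.0353). MMP2 and DSP kept their calls without any one library, while FN1 reached 0.368 without WNT replicate 2 and LAMB1 0.297 without E7 replicate 2.

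Some of the largest shifts in level were in genes of other kinds. Among genes called higher, GJA1, which encodes the gap junction protein connexin 43, had 2138 and 2593 CPM in WNT libraries, against 1092 and 1630.2 CPM in E7 libraries (log2 fold change 0.81 ± 0.16 SE, adjusted p = 0.0244). FSCN1, an actin bundling protein, had 384 and 680.2 CPM in WNT libraries, against 167 and 334 CPM in E7 libraries (log2 fold change 1.11 ± 0.15 SE, adjusted p = 0.00312). SLC2A1, the glucose transporter GLUT1, had 509.7 and 739.7 CPM in WNT libraries, against 263 and 397 CPM in E7 libraries (log2 fold change 0.92 ± 0.16 SE, adjusted p = 0.0137). For FSCN1 and SLC2A1 replicate 2 was the higher in both groups, and each WNT library exceeded the E7 library of its own number. Among genes called lower, AASS, an enzyme of lysine breakdown, had 843 and 309.7 CPM in WNT libraries, against 1461 and 623 CPM in E7 libraries (log2 fold change -0.89 ± 0.17 SE, adjusted p = 0.0219). GPR176, an orphan receptor, had 77.6 and 126 CPM in WNT libraries, against 241 and 336 CPM in E7 libraries (log2 fold change -1.53 ± 0.13 SE, adjusted p = 0.000121). DGKK, a diacylglycerol kinase, had 28.4 and 50.3 CPM in WNT libraries, against 133 and 227 CPM in E7 libraries (log2 fold change -2.20 ± 0.18 SE, adjusted p = 9.01e-05). The levels of AASS overlapped between groups, those of GPR176 and DGKK did not. NLGN4X, a synaptic adhesion protein, had 278 and 412 CPM in WNT libraries, against 482 and 747 CPM in E7 libraries (log2 fold change -0.83 ± 0.13 SE, adjusted p = 0.00835). MFGE8, a secreted milk fat globule protein, had 258 and 315 CPM in WNT libraries, against 485 and 573 CPM in E7 libraries (log2 fold change -0.89 ± 0.12 SE, adjusted p = 0.00325). CYP2S1, a cytochrome P450, had 307 and 454 CPM in WNT libraries, against 474 and 699 CPM in E7 libraries (log2 fold change -0.62 ± 0.09 SE, adjusted p = 0.00579), and VCL, which encodes vinculin, had 818 and 994 CPM in WNT libraries, against 1044 and 1276 CPM in E7 libraries (log2 fold change -0.36 ± 0.07 SE, adjusted p = 0.0313). GPR176 and DGKK kept their calls without any one library, with 0.504 and 0.123 without the block. Adjusted p reached 0.244 without E7 replicate 1 for GJA1, 0.0659 without WNT replicate 2 for FSCN1, 0.14 without E7 replicate 1 for SLC2A1, 0.257 without WNT replicate 2 for AASS, 0.134 without WNT replicate 1 for NLGN4X, 0.0617 without WNT replicate 2 for MFGE8, 0.0862 without WNT replicate 1 for CYP2S1 and 0.23 without WNT replicate 1 for VCL.

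A few more genes had large fold changes. PLA2G2A, a secreted phospholipase, had 4.28 and 3.77 CPM in WNT libraries, against 0.263 and 0.288 CPM in E7 libraries (log2 fold change 3.86 ± 0.38 SE, adjusted p = 0.000391). C4orf54 had 68 and 16 counts in WNT libraries against 2 and 1 in E7 libraries (log2 fold change 4.73 ± 0.90 SE, adjusted p = 0.0217). FOXJ1, a forkhead factor of motile cilia, had 1.17 and 1.32 CPM in WNT libraries, against 9.76 and 9.25 CPM in E7 libraries (log2 fold change -2.93 ± 0.43 SE, adjusted p = 0.00493). Of 40 tested genes whose symbols begin with FOX, FOXB1 was called higher and 4 lower, with a median of -0.07; FOXL2NB, among the 4, is a neighbour gene and not a forkhead gene. BNC1, a zinc finger factor, had 0.141 and 0.393 CPM in WNT libraries, against 1.1 and 3.24 CPM in E7 libraries (log2 fold change -2.98 ± 0.50 SE, adjusted p = 0.0105), and replicate 2 was the higher in both groups. CNTN2, a neuronal adhesion protein, had 1.67 and 2.05 CPM in WNT libraries, against 8.98 and 10.5 CPM in E7 libraries (log2 fold change -2.39 ± 0.32 SE, adjusted p = 0.00276). MAP6, which stabilises microtubules, had 1.06 and 0.675 CPM in WNT libraries, against 5.09 and 4.08 CPM in E7 libraries (log2 fold change -2.39 ± 0.38 SE, adjusted p = 0.00828). MAF, a leucine zipper factor, had 1.22 and 1.43 CPM in WNT libraries, against 7.43 and 6.21 CPM in E7 libraries (log2 fold change -2.36 ± 0.40 SE, adjusted p = 0.0107), lower in each WNT library like the 2 before it. PDE3A, which breaks down cyclic nucleotides, had 2.26 and 0.956 CPM in WNT libraries, against 8.05 and 6.59 CPM in E7 libraries (log2 fold change -2.25 ± 0.28 SE, adjusted p = 0.00167). RHOH, a small GTPase of blood cells, had 0.94 and 0.675 CPM in WNT libraries, against 3.53 and 3.74 CPM in E7 libraries (log2 fold change -2.23 ± 0.43 SE, adjusted p = 0.0231). PLA2G2A and PDE3A kept their calls without any one library, PDE3A having 0.14 without the block; the highest values were 0.386 without E7 replicate 1 for C4orf54, 0.109 without WNT replicate 1 for FOXJ1, 0.19 without WNT replicate 2 for BNC1, 0.0598 without WNT replicate 2 for CNTN2, 0.139 without WNT replicate 2 for MAP6, 0.158 without WNT replicate 1 for MAF and 0.257 without WNT replicate 1 for RHOH.

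Growth and metabolism genes were called in some lists and not in others. Over all tested genes 1.46% were called higher and 0.871% lower. In the MYC network and D cyclins, 2 of 26 tested genes (7.69%) were called higher and 1 (3.85%) lower, with a median of 0.12. CCND1, which encodes cyclin D1, had 361 and 469.6 CPM in WNT libraries, against 161 and 181 CPM in E7 libraries (log2 fold change 1.27 ± 0.17 SE, adjusted p = 0.00299). MYCL, a MYC relative, had 51.4 and 60.3 CPM in WNT libraries, against 25.5 and 25.4 CPM in E7 libraries (log2 fold change 1.12 ± 0.18 SE, adjusted p = 0.00892), and MXD4, which opposes MYC, had 18.7 and 19.3 CPM in WNT libraries, against 27 and 32.9 CPM in E7 libraries (log2 fold change -0.65 ± 0.13 SE, adjusted p = 0.03). No member was called in either direction among 29 genes of S phase and mitosis, 22 immediate early genes, 29 of cholesterol and fatty acid synthesis, 19 of amino acid and unfolded protein stress, 20 p53 targets and 18 SOX factors. Their medians were 0.10, 0.19, -0.06, -0.11, 0.06 and 0.01 in that order. SRF, a factor of immediate early genes, had 138 and 148 CPM with Wnt3a (WNT) and 107 and 123 CPM without (E7) (log2 fold change 0.32 ± 0.08 SE, adjusted p = 0.0607). In hypoxia and glycolysis 2 of 26 were called higher, SLC2A1 and BNIP3, a mitochondrial protein, with 34 and 40.8 CPM in WNT libraries, against 21.9 and 22.2 CPM in E7 libraries (log2 fold change 0.76 ± 0.12 SE, adjusted p = 0.00701). KDM6B, a histone H3 lysine demethylase, was the 1 called among 32 tested DNA methylation and histone genes, with 4.89 and 5.45 CPM in WNT libraries, against 3.01 and 2.4 CPM in E7 libraries (log2 fold change 0.93 ± 0.21 SE, adjusted p = 0.0472). LPAR6 and S1PR1, receptors of lysophospholipids, were called higher among 20 G-protein receptors. LPAR6 had 4.63 and 2.08 CPM in WNT libraries, against 0.812 and 0.432 CPM in E7 libraries (log2 fold change 2.43 ± 0.40 SE, adjusted p = 0.00933), and S1PR1 had 5.31 and 5.99 CPM in WNT libraries, against 1.55 and 1.77 CPM in E7 libraries (log2 fold change 1.77 ± 0.35 SE, adjusted p = 0.024). CCND1 lost its call in 1 of the 4 fits without one library, its log2 fold change being 1.19 to 1.33 across them. It also lost its call without the block, with an adjusted p of 0.0915 by edgeR's quasi-likelihood test. MYCL reached 0.134 without E7 replicate 2, MXD4 0.309 without WNT replicate 2, BNIP3 0.129 without E7 replicate 2, KDM6B 0.387 without E7 replicate 2, LPAR6 0.191 without E7 replicate 1 and S1PR1 0.23 without E7 replicate 2.

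**Figure D4:**
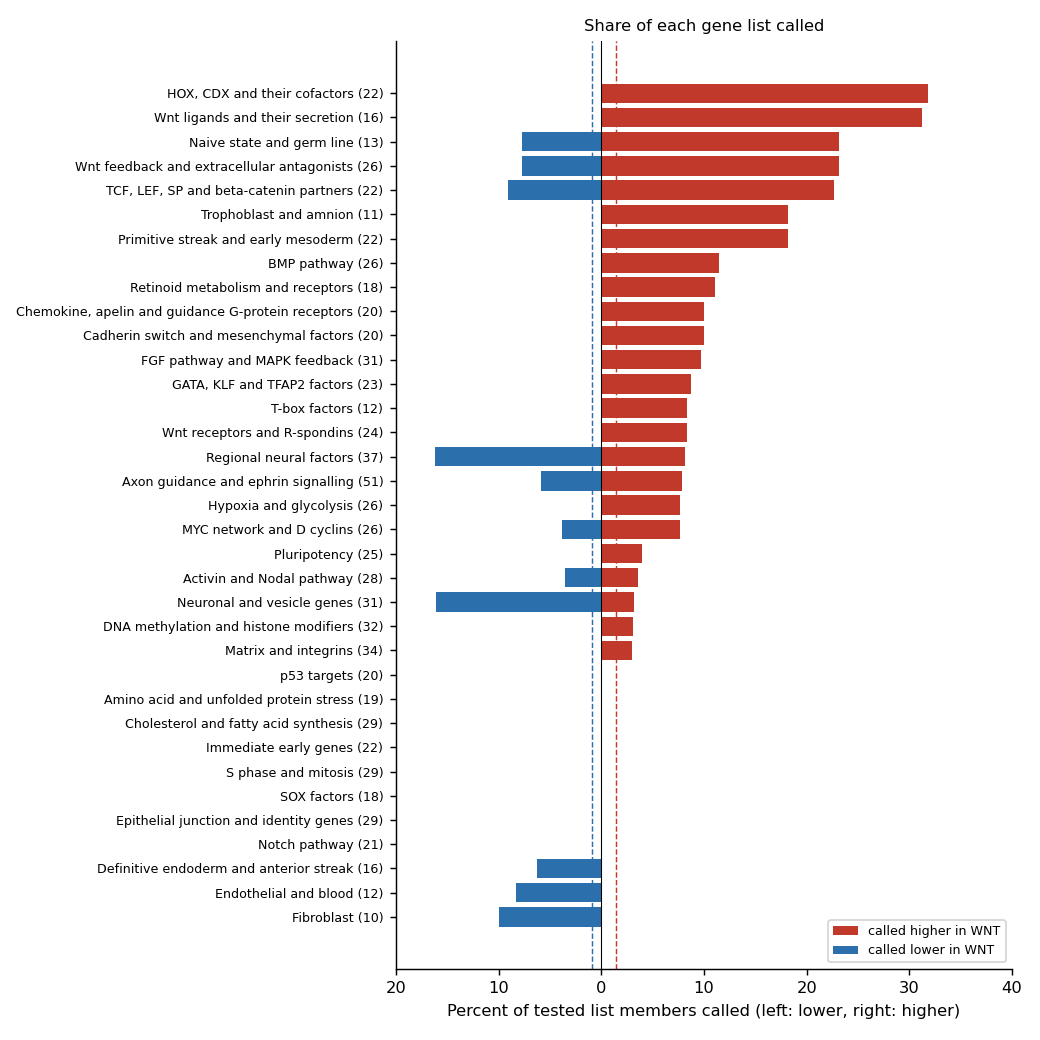
Percent of tested members called in each of 35 gene lists, with the number tested in brackets: red bars to the right are members called higher in WNT, blue bars to the left members called lower, and dashed lines the shares over all tested genes, 1.46% and 0.871%. HOX, CDX and cofactor genes (31.8%) and Wnt ligands (31.2%) have the longest red bars, and regional neural factors (16.2%) and neuronal genes (16.1%) the longest blue ones. Members with too few counts were not tested, 28 of 50 for HOX, CDX and cofactor genes, and members near 0 in E7 could hardly be called lower.

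Large families were also counted by their symbols. Of 345 tested solute carriers, 7 (2.03%) were called higher and 4 (1.16%) lower, with a median of -0.01. These shares are near the 1.46% and 0.871% over all tested genes. SLC39A8, a carrier of zinc and manganese, had 133 and 155 CPM in WNT libraries, against 25.7 and 34.8 CPM in E7 libraries (log2 fold change 2.25 ± 0.36 SE, adjusted p = 0.0083). SLC9A9, a sodium and proton exchanger of endosomes, had 2.82 and 3.23 CPM in WNT libraries, against 0.645 and 0.743 CPM in E7 libraries (log2 fold change 2.12 ± 0.48 SE, adjusted p = 0.049), and SLCO2A1, a prostaglandin transporter, had 8.11 and 7.98 CPM in WNT libraries, against 2.89 and 2.33 CPM in E7 libraries (log2 fold change 1.62 ± 0.31 SE, adjusted p = 0.0209). Among carriers called lower, SLC8A1, the sodium and calcium exchanger, had 1.57 and 1.24 CPM in WNT libraries, against 3.65 and 4.94 CPM in E7 libraries (log2 fold change -1.59 ± 0.25 SE, adjusted p = 0.00649). SLC7A3, a carrier of arginine and lysine, had 108 and 145 CPM in WNT libraries, against 183 and 245 CPM in E7 libraries (log2 fold change -0.75 ± 0.10 SE, adjusted p = 0.00325). SLC24A3 had 6.02 and 6.97 CPM in WNT libraries, against 12.2 and 14.9 CPM in E7 libraries (log2 fold change -1.06 ± 0.20 SE, adjusted p = 0.0219), and SLC39A14, another zinc carrier, had 323 and 394 CPM in WNT libraries, against 408 and 519 CPM in E7 libraries (log2 fold change -0.37 ± 0.08 SE, adjusted p = 0.0344). The zinc carriers SLC39A8 and SLC39A14 were thus called in opposite directions. Of 89 tested potassium channel genes 1 (1.12%) was called higher and 3 (3.37%) lower, with a median of -0.21. KCND3 had 0.305 and 0.309 CPM in WNT libraries, against 1.53 and 1.8 CPM in E7 libraries (log2 fold change -2.45 ± 0.46 SE, adjusted p = 0.0197), KCNA1 had 0.54 and 0.703 CPM in WNT libraries, against 1.91 and 1.8 CPM in E7 libraries (log2 fold change -1.58 ± 0.33 SE, adjusted p = 0.0327) and KCNK5 had 34.3 and 51.8 CPM in WNT libraries, against 62 and 92.4 CPM in E7 libraries (log2 fold change -0.84 ± 0.11 SE, adjusted p = 0.00324). KCNMB4, an auxiliary subunit, had 22.3 and 23.9 CPM in WNT libraries, against 16.9 and 17.5 CPM in E7 libraries (log2 fold change 0.43 ± 0.09 SE, adjusted p = 0.0406). Each of these 11 genes lost its call in at least 1 fit without one library, the highest value being 0.372 without WNT replicate 1 for KCNA1.

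Zinc finger genes with ZNF symbols gave 3 called higher and none lower of 543 tested, below the share over all genes, with a median of -0.01. ZNF611 had 19.9 and 9.89 CPM in WNT libraries, against 8.91 and 5.39 CPM in E7 libraries (log2 fold change 1.02 ± 0.12 SE, adjusted p = 0.00145), ZNF518B had 36.9 and 20 CPM in WNT libraries, against 15.5 and 7.05 CPM in E7 libraries (log2 fold change 1.36 ± 0.21 SE, adjusted p = 0.00615) and ZNF600 had 13.7 and 10.5 CPM in WNT libraries, against 5.73 and 3.72 CPM in E7 libraries (log2 fold change 1.38 ± 0.31 SE, adjusted p = 0.0498). Of 402 tested genes with LINC symbols 5 (1.24%) were called higher and none lower, near the 1.46% called higher over all tested genes. LINC01780 had 3.22 and 1.85 CPM in WNT libraries, against 0.406 and 0.336 CPM in E7 libraries (log2 fold change 2.75 ± 0.38 SE, adjusted p = 0.00325), and LINC02121 had 1.32 and 1.46 CPM in WNT libraries, against 0.239 and 0.144 CPM in E7 libraries (log2 fold change 2.84 ± 0.39 SE, adjusted p = 0.00325). In the 3 ZNF genes replicate 1 was the higher in both groups, and the groups did not overlap. PCDHGC4 was the 1 protocadherin called of 71, with 5.9 and 10.2 CPM in WNT libraries, against 1.53 and 2.42 CPM in E7 libraries (log2 fold change 2.01 ± 0.33 SE, adjusted p = 0.00959), and shares its last exons with the other genes of its cluster, so its reads are uncertain. H1-10, a linker histone, was the 1 called of 53 tested histone genes, with 47.7 and 70.7 CPM in WNT libraries, against 34 and 48.5 CPM in E7 libraries (log2 fold change 0.52 ± 0.12 SE, adjusted p = 0.0459), and TRIM38 the 1 called of 57 TRIM genes, with 1.79 and 0.759 CPM in WNT libraries, against 4.23 and 2.52 CPM in E7 libraries (log2 fold change -1.44 ± 0.27 SE, adjusted p = 0.0201). The shares called were 1.41% of protocadherins, 1.89% of histone genes and 1.75% of TRIM genes, each from 1 gene. None of 83 cytosolic and 81 mitochondrial ribosomal protein genes and 76 small nucleolar RNAs was called in either direction. RPL4 had 1841 and 2202 CPM with Wnt3a (WNT) and 1815 and 2195 CPM without (E7), and MRPL3 had 222 and 259.7 CPM with Wnt3a (WNT) and 221 and 259.5 CPM without (E7). ZNF611 kept its call without any one library but not without the block (adjusted p = 1.0); ZNF600 reached 0.407 without WNT replicate 2, ZNF518B 0.0883 without E7 replicate 2, LINC01780 0.0596 without E7 replicate 1, LINC02121 0.0681 without E7 replicate 2, PCDHGC4 0.119 without WNT replicate 2, TRIM38 0.228 without WNT replicate 2 and H1-10, whose groups overlapped, 0.338 without E7 replicate 2.

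Called genes sometimes lay side by side. Among 17757 pairs of tested genes adjacent in RefSeq order, both were called in 45: 28 with both higher, 13 with both lower and 4 opposite. The share called over all tested genes was 2.33%, and whether 45 pairs exceed what it would give was not tested. These pairs include overlapping genes whose reads cannot be told apart, such as LEF1 with LEF1-AS1, EVX1 with EVX1-AS and FOXJ1 with RNF157-AS1. On chromosome 2 a run of 6 neighbours was called higher, from MYO3B through ERICH2-DT, LINC01124, SP5 and ERICH2 to GAD1, while the genes at its ends, UBR3 and GORASP2, were not. This run was picked after its values were seen. GAD1, which makes the transmitter GABA from glutamate, had 63.8 and 42 CPM in WNT libraries, against 0.406 and 0.144 CPM in E7 libraries (log2 fold change 7.65 ± 0.22 SE, adjusted p = 3.72e-08), the smallest adjusted p of all. ERICH2 had 21.7 and 23.7 CPM in WNT libraries, against 5.8 and 5.54 CPM in E7 libraries (log2 fold change 2.00 ± 0.14 SE, adjusted p = 3.9e-05), and ERICH2-DT, which overlaps SP5 and LINC01124, had 2.87 and 2.73 CPM in WNT libraries, against 0.74 and 0.719 CPM in E7 libraries (log2 fold change 1.93 ± 0.28 SE, adjusted p = 0.00456). MYO3B, an unconventional myosin, had 2.07 and 1.97 CPM in WNT libraries, against 0.645 and 0.719 CPM in E7 libraries (log2 fold change 1.56 ± 0.32 SE, adjusted p = 0.0322). All 6 had no overlap between groups, with SP5, LINC01124 and GAD1 near 0 in E7. On chromosome 7 SKAP2 and HOTAIRM1 were called higher, as were EVX1-AS and EVX1 at the far end of the HOXA cluster, while HOXA2, HOXA13 and HOTTIP between them were not called. As EVX1-AS overlaps EVX1 and strand was not stated, the 2 may not be separate calls. SKAP2, an adaptor protein, had 17.5 and 13.9 CPM in WNT libraries, against 4.37 and 5.37 CPM in E7 libraries (log2 fold change 1.68 ± 0.28 SE, adjusted p = 0.0103). Pairs of a gene with its antisense or divergent partner included RGMB, a BMP co-receptor, at 109 and 111 CPM in WNT libraries, against 24.1 and 22.3 CPM in E7 libraries (log2 fold change 2.24 ± 0.14 SE, adjusted p = 2.59e-05), and RGMB-AS1 at 13.4 and 8.49 CPM in WNT libraries, against 0.859 and 0.839 CPM in E7 libraries (log2 fold change 3.68 ± 0.26 SE, adjusted p = 3.9e-05). TLE6, TLE2 and TLE5 formed a run called lower, and so did IDO1, ZMAT4 and SFRP1. DPPA3, lower, lay next to NANOG, higher. SP5, LINC01124, ERICH2, GAD1, RGMB and RGMB-AS1 kept their calls without any one library, while MYO3B reached 0.281 without E7 replicate 1, ERICH2-DT 0.0863 without E7 replicate 1 and SKAP2 0.147 without E7 replicate 1.

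**Figure D5:**
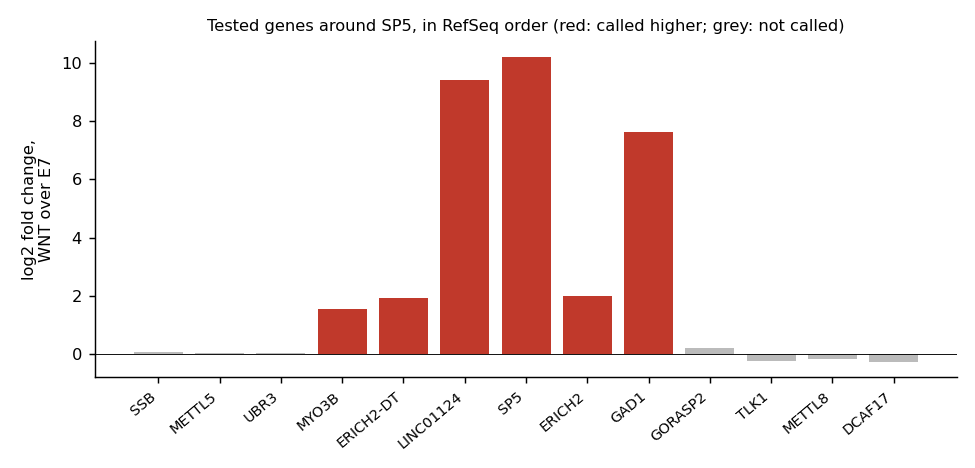
log2 fold change of WNT over E7 for tested genes in RefSeq order around SP5, one bar per gene; red bars are genes called higher and grey bars genes not called. The 6 bars from MYO3B to GAD1 are red, between UBR3 at 0.01 and GORASP2 at 0.19.

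The same genes had other levels in the groups not compared here, which are given as a description. SP5 had 24.5 and 10.1 CPM in WNT_E7 libraries (Wnt3a for a day, then medium alone to 48 h) and 93 and 47.7 CPM in WNT_ACT libraries (Wnt3a, then Activin A at 10 ng/mL), and 0 and 0.0762 CPM in E7_ACT libraries (medium, then Activin A). EOMES had 8.52 and 2.87 CPM in WNT_E7 libraries and 483 and 84 CPM in WNT_ACT libraries. In the medium that followed Wnt3a the levels of both genes were lower than in WNT, and with Activin A EOMES stood above every WNT library. SFRP1 had 167 and 74.2 CPM in WNT_E7 libraries, 85.5 and 68.6 CPM in WNT_ACT libraries and 214 and 258 CPM in E7_ACT libraries. FST had 158 and 60.6 CPM in WNT_E7 libraries and 85.5 and 70 CPM in WNT_ACT libraries. TBXT had 0.818 and 1.17 CPM in WNT_E7 libraries and 79.4 and 30.6 CPM in WNT_ACT libraries. With CPI-203 at 1 µM beside Wnt3a on the first day, SP5 had 104 and 64.4 CPM in WNT_CPI libraries, WNT5B had 13.2 and 8.43 CPM in WNT_CPI libraries and NKX1-2 had 84 and 72.6 CPM in WNT_CPI libraries. NANOG had 1.23 and 1.32 CPM in WNT_CPI libraries, far below both WNT libraries.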

How the data were processed

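RNA was counted in RUES2 cells. The deposited unit was the raw count of reads per gene, held in a table for each replicate number, with featureCounts among the tools in the submitters' processing notes; aligner, build and strandedness of the RNA counts are not given in the sources used here. Tables were joined by Entrez ID (27348 shared genes, 27322 with a RefSeq symbol). The deposited list of ATAC peak positions was not used here.

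The model was edgeR's (4.0.16, with limma 3.58.1 and R 4.3.3): genes filtered by filterByExpr, totals scaled by TMM, and 2-sided quasi-likelihood F-tests with terms for 8 groups and the replicate number, with 6 residual degrees of freedom over 15 libraries. E7_CPI replicate 1 was left out: as deposited its highest absolute Spearman correlation with another library was 0.00712, and 0.954 to 0.986 when read in the gene order of the other table. SE is the log2 fold change divided by the square root of F. P-values were adjusted by Benjamini-Hochberg. Replicate numbers paired the samples: deviations from group means correlated at 0.530 to 0.924 across 12617 genes in all 21 pairs of groups, and at 0.924 between WNT and E7. The block was set by the comparison's rule. The common biological coefficient of variation was 0.122. The fit was tested on simulated data.

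Libraries had 15478 to 16327 genes with at least 10 counts. Of 626 genes on chromosome 22, 625 had no count, so their changes could not be seen. Ratios of counts carry exact 95% intervals, which cover counting error only; a count of 0 was set to a floor of 3 counts per library. Molecular identifiers are not mentioned in the labels.

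Genes named were the 20 called higher and 15 called lower with the largest fold changes at a mean of 1 CPM or more in the higher group; the 12 most abundant called with under 10 counts in each E7 library; the 8 largest differences in CPM in each direction; up to 4 called members per list in each direction, or the 2 most abundant where none was called; and SP5, WNT5B, FST, LEF1, AXIN2, TBXT, EOMES, MIXL1, NODAL, NANOG, POU5F1 and SOX2. Some genes that meet this rule are not reported here. Other genes named were chosen after their values were seen. The members and lists were chosen with earlier results of these data known. Alternatives were other scalings, filters, sets of libraries, no block, DESeq2 1.42.0 and leaving out each library.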

Additional observations from a re-analysis of the deposited data

How the results depend on the processing

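The count of calls varied more with the block and the libraries fitted than with scaling or filtering. Main counts were 414 called, 259 higher and 155 lower. Without the replicate block, 76 genes were called, 65 higher and 11 lower, and all 76 were among the 414. DESeq2's Wald test called 750, of which 365 lower and 410 shared. With WNT and E7 libraries alone 2377 were called (1201 higher, 1176 lower), and with the 24 h libraries alone 1582 (827 higher, 755 lower), each holding all 414. With E7_CPI replicate 1 added in the gene order of the other table, 299 were called, 203 higher and 96 lower. Of these, 297 were among the 414. Leaving out 1 library gave 107 to 146 called, 88 to 114 higher and 13 to 41 lower; the lone library left in its group is then assumed to vary like the others. With DESeq2 size factors, library totals, no filter or a stricter filter, 381 to 473 were called, and 379 of the 420 under the stricter filter were among the 414. None of the 414 called genes changed direction under these settings, while genes not called and near 0, such as RPL4 and MRPL3, and NOTCH2 did. Scaling moved the median over all genes by less than 0.1 on the log2 scale. Genes with few counts in E7 had wide intervals, and with 2 libraries per group the calls rest on spread shared with other groups. The cause of these differences was not tested.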

Other observations

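Several genes outside the lists were called higher in all 4 fits without one library. They were picked after their values were seen. DUSP10, a phosphatase of stress-activated kinases, had 8.60 and 8.49 CPM in WNT libraries, against 0.740 and 0.599 CPM in E7 libraries. ALK, a receptor tyrosine kinase, had 2.73 and 5.71 CPM in WNT libraries, against 0.167 and 0.456 CPM in E7 libraries. CD44, a receptor of hyaluronan, had 34.8 and 56.8 CPM in WNT libraries, against 12.5 and 19.9 CPM in E7 libraries. These 3 did not overlap between groups. Without the block, adjusted p by edgeR's quasi-likelihood test was 0.000610 for DUSP10, 0.0449 for ALK and 0.421 for CD44. MLLT6, a chromatin protein, and its neighbour EPOP, which binds the Polycomb complex PRC2, were both called higher. MLLT6 had 72.6 and 36.7 CPM in WNT libraries, against 17.8 and 9.09 CPM in E7 libraries, and EPOP had 31.4 and 20.5 CPM in WNT libraries, against 4.35 and 3.16 CPM in E7 libraries; EPOP was called in none of those 4 fits, and MLLT6 had 0.543 without the block.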
